A study of Mus musculus with 8 samples.

Results

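The genes described here are 10 listed stress and amino acid synthesis genes that the transcription factor ATF4 drives: Atf4, Ddit3, Trib3, Chac1, Asns, Psat1, Phgdh, Psph, Shmt2 and Mthfd2. They were taken by symbol, and all 10 were found among the 21833 symbols of the count tables and among the 12755 genes that passed a filter on low counts. RNA was sequenced from gastrocnemius, a calf muscle of mainly fast fibres, of male C57BL/6J mice aged 12 weeks, 1 library per mouse. All 8 mice had pooled serum of arthritic K/BxN mice, 100 µL into the peritoneum on day 0 and again on day 2, which transfers joint inflammation to the recipient. The RA group (n = 4) had serum only, and the RA+Dipy group (n = 4) also had dipyridamole, 25 mg/kg each day from day 0. Dipyridamole blocks nucleoside uptake, so that adenosine builds up outside cells. Muscle was collected on day 16. Both groups had the serum, so the comparison is between serum with and without the drug. Muscle of mice without serum was not analysed here, and no joint score was used. Groups follow the sample titles, because the treatment protocol names the drug for all 8 samples and the genotype field gives K/BxN for serum recipients.

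ATF4 sits at the end of the integrated stress response. Kinases that sense lack of amino acids, misfolded protein, viral RNA or heme shortage phosphorylate the initiation factor eIF2. General translation then slows while ATF4 mRNA is translated more, so the level of Atf4 mRNA alone does not give the amount of ATF4 protein. ATF4 and its C/EBP partners bind a composite DNA element and switch on genes for amino acid uptake and synthesis, tRNA charging and, under long stress, cell death. In muscle this programme is known from mitochondrial disease, fasting and ageing, where serine synthesis and mitochondrial one-carbon enzymes are among its outputs.

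The DNA element in question is the C/EBP-ATF response element. Its core, TGATGNAA on either strand, was searched in the RefSeq windows (build GRCm38.p6) from 250 bases before to 50 after each gene's start. All 10 genes had a window, and Psat1 had an extra one for another start, which made 11 windows. The RefSeq starts of Psat1 lie 22278 and 22715 bases, and that of Mthfd2 8304 bases, from the GENCODE gene starts given below, so the windows of these 2 genes are not at those starts. The core was present for 3 genes, Chac1, Trib3 and Asns, against 3.97% of all 32851 windows. These 3 stretches of 30 bases are shown, 5′ to 3′ on the gene's strand and with the core in capitals, because they separate genes that carry the element near the start from those in which these letters were not in the window. For Chac1 and Trib3 the core reads on the opposite strand, so its complement appears.
Chac1: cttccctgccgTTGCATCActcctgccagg
Trib3: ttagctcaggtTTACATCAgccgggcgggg
Asns: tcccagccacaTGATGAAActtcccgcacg
The Chac1 stretch lies at chr2:119351038-119351067 (plus strand), with the first base of the core 193 bases before the start site. That of Trib3 lies at chr2:152344028-152344057 (minus strand), with the core 14 bases past the start site. That of Asns lies at chr6:7693214-7693243 (minus strand), with the core 23 bases before the start site. These start sites are those of RefSeq. For Trib3 and Asns they lie 28 and 45 bases from the GENCODE gene starts given below. Relative to the GENCODE starts, the Trib3 core lies before the start and the Asns core past it. A match describes letters only and does not show that ATF4 is bound there.

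The longer upstream stretch of Chac1, chr2:119350992-119351226 in GRCm38.p6 (plus strand), is shown because Chac1 varied most of the 10 genes. The core is again in capitals.
Chac1 upstream: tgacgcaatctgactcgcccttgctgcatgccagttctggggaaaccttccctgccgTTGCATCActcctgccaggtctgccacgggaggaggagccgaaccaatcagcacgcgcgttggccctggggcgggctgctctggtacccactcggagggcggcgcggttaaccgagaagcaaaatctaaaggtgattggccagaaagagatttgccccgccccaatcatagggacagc
The palindromic cyclic AMP response element, TGACGTCA, was in 1.79% of all windows and in that of 0 of the 10 genes.

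Libraries held 16.4 to 50.6 M counts over protein-coding genes. Levels are given as CPM, counts-per-million of the library, scaled between libraries by the trimmed mean of M-values. RA replicate 4 and RA+Dipy replicate 1 stood apart. Over 3203 well expressed genes, 41.2% and 20.9% lay more than 2-fold from the median of the 8 libraries, against 0.0937% to 0.937% in the other 6 libraries. Values without one or both of these libraries are given beside the results that moved most. The 10 fast-fibre markers, Myh4 and Acta1 among them, summed to 175150 to 260524 CPM in every library, as in fast muscle. Single markers did not all follow the sum. Tnnc2 was at only 0.880 to 3.10 CPM. In RA replicate 4 and RA+Dipy replicate 1, Atp2a1 was low, at 8217 and 2117 CPM against 17760 to 21923 CPM in the other 6 libraries. Pvalb was high in these 2, at 64431 and 46679 CPM against 11539.8 to 21474.5 CPM. The sums of some other cell types differed more. The 12 macrophage markers summed to 133 to 328 CPM in RA and 183 to 363 CPM in RA+Dipy (10 of 12 higher). The 9 fibroblast markers summed to 2635 to 3626 and 3208 to 5112 CPM (8 of 9 higher), and the 7 Schwann cell markers to 243 to 559 and 174 to 283 CPM (0 of 7 higher). Further lists were more mixed. The 7 endothelium markers summed to 267 to 351 and 186 to 337 CPM (5 of 7 higher). The 6 tendon markers summed to 474 to 1036 and 600 to 1061 CPM (4 of 6 higher), and the 8 slow-fibre markers to 1637 to 2979 and 1448 to 2795 CPM (2 of 8 higher). Their part in the results was not tested. In whole muscle, fewer cells of a type and less RNA per cell cannot be told apart.

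None of the 10 genes passed the test between RA+Dipy and RA. With edgeR's quasi-likelihood test, adjusted by Benjamini-Hochberg over all genes at a threshold of 0.05, the adjusted p of the 10 ran from 0.882 to 0.990. The background was the same, since 0% of 12755 genes passed (488 had an unadjusted p under 0.05). DESeq2 gave 0 calls too (740 genes below 0.05 before adjustment). Limma-voom with library weights called 1.04% of all genes and 0 of the 10. At an unadjusted p under 0.05, 1 of the 10 genes, Psat1, was below the limit, against 3.83% of all genes. The values of the groups overlapped for all 10, while 2.72% of all genes had groups that did not overlap. In direction, 4 of the 10 were higher and 6 lower with the drug, beside 6654 higher and 6101 lower of all 12755 genes. The median log2 fold change of the 10 was -0.15, against 0.02 for all genes. The regulators and effectors Atf4, Ddit3, Trib3 and Chac1 were lower in all 4 cases, and 3 of the 4 amino acid synthesis enzymes were higher, none of them past the adjusted threshold. Without both libraries that stood apart, the signs of Trib3 (0.10), Phgdh (0.46) and Psph (-0.28) changed.

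**Figure D1:**
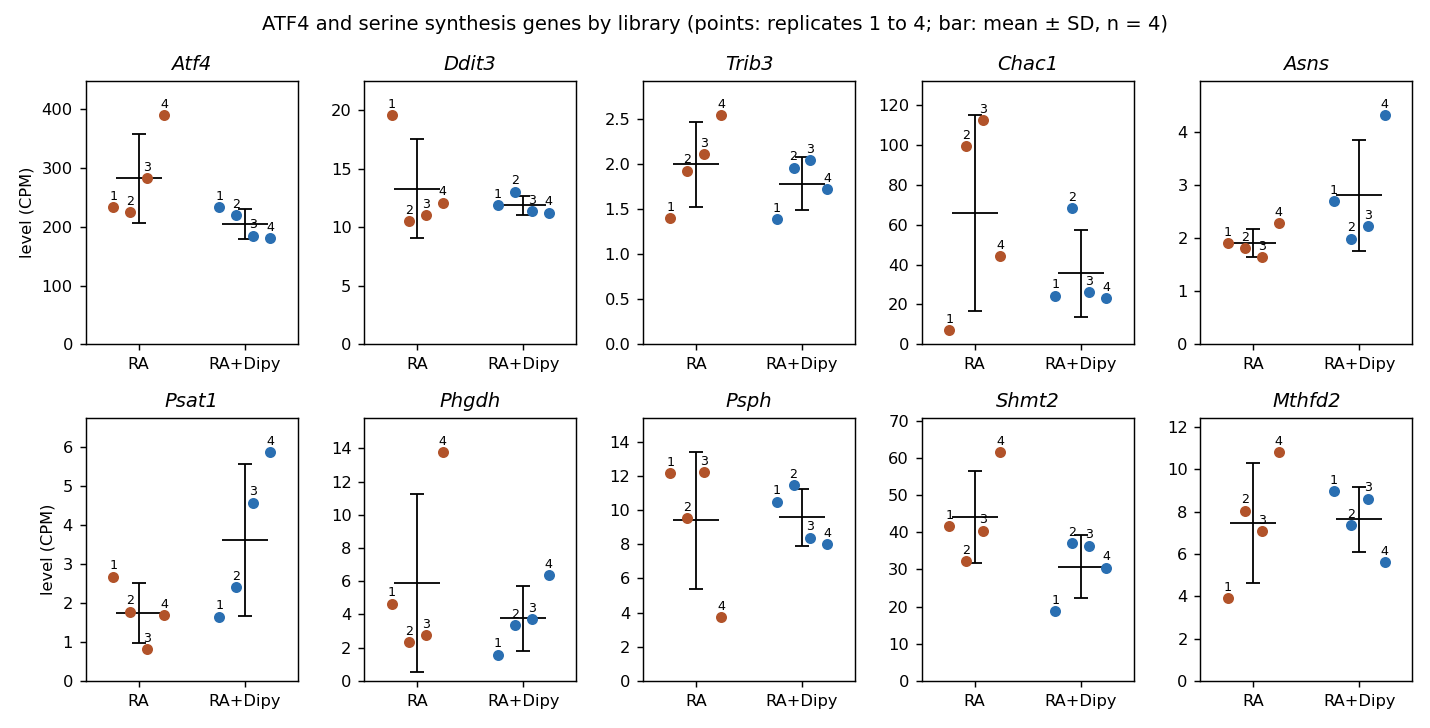
Level in CPM (vertical axis, a separate scale for each gene) of the 10 genes in RA and RA+Dipy libraries; points are libraries, numbered by replicate, and bars are the mean ± SD (n = 4). The groups overlap for every gene, and Chac1 in RA runs from 7.09 to 112 CPM.

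Atf4 (chromosome 15, 80255184 to 80257541, plus strand, GRCm38) was the most abundant of the 10. Its level was 233, 225, 284 and 390.0 CPM in RA replicates 1 to 4 and 233, 220.0, 185 and 181 CPM in RA+Dipy replicates 1 to 4. The RA libraries were the upper ones, with RA replicate 4 on top, but RA+Dipy replicate 1 reached the level of RA replicates 1 and 2. Means were 283 ± 76.0 and 205 ± 25.8 CPM (SD, n = 4), a log2 fold change of -0.47 (SE 0.27, 95% interval -1.06 to 0.13, edgeR adjusted p = 0.882). Without RA replicate 4 it was -0.26. Without both libraries that stood apart, the remaining RA values all lay above the remaining RA+Dipy values, 247 ± 31.9 against 195 ± 21.5 CPM (n = 3), as for 14.1% of all genes in those libraries. The log2 fold change was then -0.33 (SE 0.15, edgeR adjusted p = 0.437), and 11.4% of all genes had an unadjusted p under 0.05, which Atf4 missed at 0.0548.

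Ddit3 (chromosome 10, 127290774 to 127296288) encodes CHOP, a partner of ATF4 that drives the cell death arm. It stood at 19.5, 10.5, 11 and 12.1 CPM in RA and at 11.9, 13.0, 11.4 and 11.2 CPM in RA+Dipy. Apart from RA replicate 1, the deepest library, the 7 other libraries lay between 10.5 and 13.0 CPM, so the gene was nearly level over both groups. The log2 fold change was -0.16 (SE 0.25, interval -0.73 to 0.40), and 0.09 without RA replicate 1. The tables list the symbol on 2 lines, of which one, a short overlapping model, was at 0 in all libraries.

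Trib3 (chromosome 2, 152337422 to 152344032) encodes a pseudokinase that ATF4 and CHOP induce and that dampens their output. It was scarce, with 21 to 71 reads per library. The RA libraries gave 1.40, 1.92, 2.11 and 2.54 CPM, and the RA+Dipy libraries 1.39, 1.96, 2.04 and 1.72 CPM. Both groups began at the same low value, and only RA replicates 3 and 4 exceeded all RA+Dipy libraries. Its log2 fold change of -0.14 (SE 0.29, interval -0.78 to 0.50) was 0.10 without both libraries that stood apart.

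Chac1 (chromosome 2, 119351229 to 119354381) encodes an enzyme that breaks down glutathione and is a sensitive readout of ATF4 in many cells. It was at 7.09, 99.5, 112 and 44.1 CPM in RA and at 24.3, 68.2, 26.3 and 23.2 CPM in RA+Dipy. The highest and the lowest of the 8 libraries were both RA, a 15.9-fold span within that group, against 2.94-fold within RA+Dipy. The low value was in the deepest library, where it rested on 360 reads, and neither of the extremes was a library that stood apart. The spread within groups, 1.40 log2 units, was above that of 98.4% of all genes tested. The log2 fold change was -0.89 (SE 0.69, interval -2.43 to 0.65, edgeR adjusted p = 0.882). It ranged from -0.51 without RA replicate 3 to -1.42 without RA+Dipy replicate 2, so single libraries set its size. Chac1 did not follow Atf4 in every library: RA replicates 1 and 2 had 233 and 225 CPM of Atf4 but 7.09 and 99.5 CPM of Chac1.

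**Figure D2:**
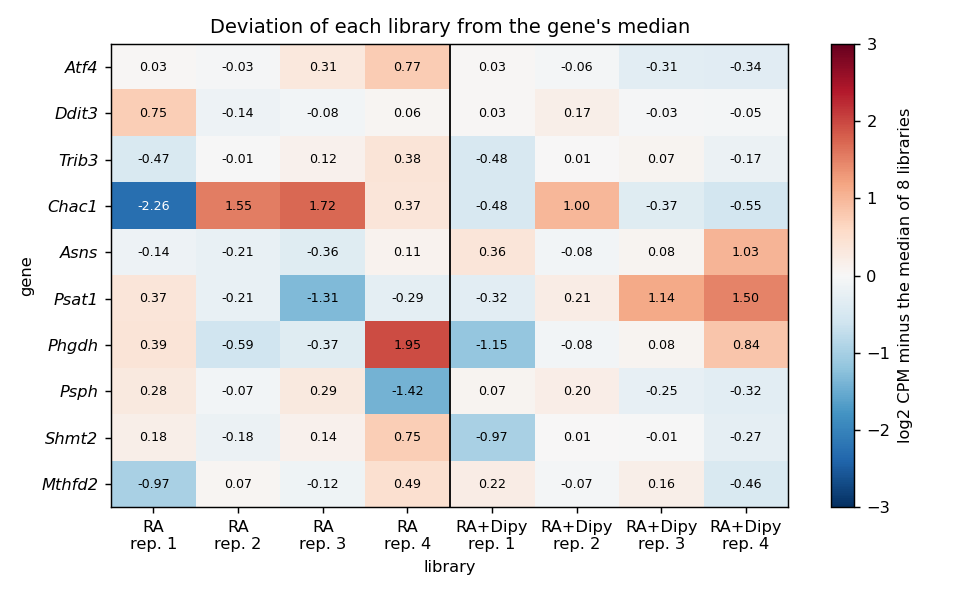
Each cell gives the log2 level of 1 gene (rows) in 1 library (columns) minus the median of the 8 libraries, in red above and in blue below; the black line separates RA from RA+Dipy. The largest deviations are those of Chac1 in RA replicate 1 (-2.26) and Phgdh in RA replicate 4 (1.95), and no column is red or blue throughout.

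Asparagine synthetase, Asns (chromosome 6, 7675169 to 7693254), makes asparagine from aspartate and glutamine. Its level was 1.91, 1.82, 1.64 and 2.28 CPM in RA and 2.71, 1.99, 2.23 and 4.32 CPM in RA+Dipy, from 27 to 108 reads. RA+Dipy replicate 4 was far above the other 7 libraries, and RA replicate 4 was above RA+Dipy replicates 2 and 3. The log2 fold change was 0.56 (SE 0.31, interval -0.12 to 1.25, edgeR adjusted p = 0.882), with means of 1.91 ± 0.271 and 2.81 ± 1.05 CPM. Leaving out RA+Dipy replicate 4 gave 0.28. With RA replicate 4 and RA+Dipy replicate 1 both left out, the groups no longer overlapped, as for 14.1% of all genes in those libraries. The log2 fold change of Asns was then 0.67 (SE 0.31, edgeR unadjusted p = 0.0571, edgeR adjusted p = 0.437).

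Serine is made from the glycolytic intermediate 3-phosphoglycerate in 3 steps, by Phgdh, Psat1 and Psph in that order. Psat1 (chromosome 19, 15904678 to 15947337), the aminotransferase in the middle, had the largest positive fold change of the 10 genes. It was at 2.68, 1.78, 0.820 and 1.69 CPM in RA and at 1.65, 2.40, 4.58 and 5.88 CPM in RA+Dipy, from 20 to 147 reads. RA+Dipy replicates 3 and 4 lay above every RA library, whereas RA+Dipy replicates 1 and 2 lay within the RA range. Means of 1.74 ± 0.760 and 3.63 ± 1.95 CPM gave a log2 fold change of 1.05 (SE 0.46, interval 0.02 to 2.08, unadjusted p = 0.0468, edgeR adjusted p = 0.882). It was 0.72 without RA+Dipy replicate 4, 1.25 (SE 0.42, edgeR adjusted p = 0.418) without both libraries that stood apart, and positive under all 15 alternatives.

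Asns and Psat1 shared their highest library, RA+Dipy replicate 4, which also had the most fat-cell RNA. The 8 adipocyte markers, none of them at 0, summed to 229 to 668 CPM in RA and to 310 to 1084 CPM in RA+Dipy. The top value was that of RA+Dipy replicate 4, and 7 of the 8 were higher in RA+Dipy. In RA replicate 4 the marker sum was the next highest, at 668 CPM, while Psat1 was at 1.69 CPM and Asns at 2.28 CPM. Of that sum, Cfd alone gave 369 CPM. Plin1, Lep and Pck1 were at only 14.1, 2.03 and 8.20 CPM there, against 74.6, 14.4 and 94.1 CPM in RA+Dipy replicate 4. Cidec was less far apart (46.5 against 92.7 CPM), and Retn was higher in RA replicate 4 (67.6 against 45.2 CPM). The sum alone therefore does not show how much fat-cell RNA RA replicate 4 held. Phgdh, described next, had the same 2 libraries on top, with 13.8 CPM in RA replicate 4 and 6.36 CPM in RA+Dipy replicate 4. The part of adipocyte RNA in the levels of these 3 genes was not tested.

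Phgdh (chromosome 3, 98313170 to 98339990), the dehydrogenase that commits carbon to serine, was at 4.65, 2.35, 2.73 and 13.8 CPM in RA and at 1.58, 3.36, 3.73 and 6.36 CPM in RA+Dipy. RA replicate 4 held more than all other libraries, and RA+Dipy replicate 1 held the least, so the 2 libraries that stood apart were also the extremes for this gene. Its log2 fold change of -0.61 (SE 0.59, interval -1.92 to 0.71) became 0.46 (SE 0.32, interval -0.26 to 1.17, edgeR adjusted p = 0.541) without both of them and 0.22 without RA replicate 4 alone. The direction for Phgdh therefore rested on RA replicate 4.

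Psph (chromosome 5, 129765558 to 129787449), the phosphatase that releases serine, was at 12.2, 9.51, 12.2 and 3.72 CPM in RA and at 10.5, 11.4, 8.39 and 8.0 CPM in RA+Dipy. RA replicate 4 had the lowest level, and the other 7 libraries lay between 8.0 and 12.2 CPM. The log2 fold change was 0.02 (SE 0.35, interval -0.76 to 0.80), and -0.28 (SE 0.18) without both libraries that stood apart. Psph shares 452 exon bases with a transcript annotated to Cct6a on the opposite strand, which counting without strand cannot separate.

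The 3 serine enzymes did not move together across libraries. Per kb of exon, the Phgdh level was 0.263 to 1.38 times that of Psph in 7 libraries and 6.45 times in RA replicate 4. Against Psat1, the Phgdh level per kb was 1.39 to 2.40 times as high in the 4 RA+Dipy libraries and 2.26, 2.97, 5.70 and 13.9 times as high in RA. These ratios scale with the annotated exon lengths, were computed after the levels had been seen and are given as a description.

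In mitochondria, Shmt2 (chromosome 10, 127517123 to 127522444) turns serine into glycine and passes 1 carbon to folate, and Mthfd2 (chromosome 6, 83305691 to 83325908) oxidises that unit further. Shmt2 was at 41.7, 32.3, 40.4 and 61.5 CPM in RA and at 18.7, 37.0, 36.4 and 30.5 CPM in RA+Dipy. RA replicate 4 was the highest library and RA+Dipy replicate 1 the lowest, while the other 6 libraries lay between 30.5 and 41.7 CPM. The log2 fold change was -0.52 (SE 0.30, interval -1.18 to 0.14, edgeR adjusted p = 0.882). Without both of these libraries it was -0.13 (SE 0.14, interval -0.45 to 0.19).

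Mthfd2 was at 3.92, 8.05, 7.07 and 10.8 CPM in RA and at 8.97, 7.35, 8.62 and 5.6 CPM in RA+Dipy. The RA libraries held both the lowest and the highest value and enclosed the RA+Dipy group. Its log2 fold change was 0.04 (SE 0.32, interval -0.67 to 0.76), and 0.20 without both libraries that stood apart. The intervals of Ddit3, Trib3, Psph and Mthfd2 reach well to both sides of 0, so differences of either sign remain possible for these genes.

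**Figure D3:**
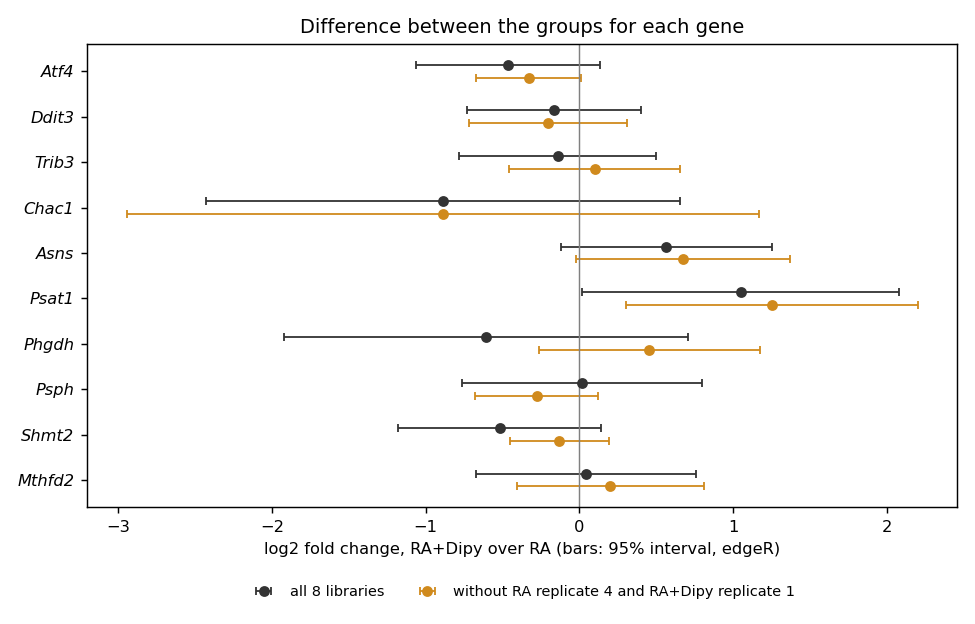
Log2 fold change of RA+Dipy over RA (horizontal axis) with its 95% interval for each gene, from all 8 libraries (dark) and without RA replicate 4 and RA+Dipy replicate 1 (amber). Only the Psat1 interval lies above 0 in both fits, before adjustment over all genes, and the values of Trib3, Phgdh and Psph change side between them.

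Levels can be compared between genes only per exon length. In CPM per kb of annotated exon, Atf4 was at 120 ± 32.2 in RA and 86.8 ± 10.9 in RA+Dipy. Chac1 followed with 40.2 ± 29.99 and 21.7 ± 13.3, then Shmt2 with 14.1 ± 3.99 and 9.86 ± 2.72 and Ddit3 with 7.76 ± 2.46 and 6.93 ± 0.479. Psph, Mthfd2 and Phgdh lay close together, at a mean over all libraries of 2.19, 2.17 and 1.94 CPM per kb, with ranges that overlap. Trib3 (0.886), Asns (0.864) and Psat1 (0.631) were the scarcest and likewise overlapped. Their order depends on the exon length used, which for Psat1 was 4.254 kb of annotated exon. In CPM, Psat1 was the lowest of these genes in RA (1.74, against 1.99 for Trib3 and 1.91 for Asns). It was the highest of them in RA+Dipy (3.63, against 1.78 and 2.81). Per kb, muscle thus held far more transcript of the regulator Atf4 than of its amino acid synthesis targets.

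The profile of Atf4 over the 8 libraries was not that of the other 9 genes. Likeness was measured as the root mean square difference of log2 CPM, each gene centred on its own mean. The 5 nearest of all genes tested were Npepl1 (0.078), Nlrc3 (0.080), Trmt1 (0.095), Tle5 (0.097) and Pwwp2b (0.100). Of the listed genes, Trib3 was nearest, at 0.31, and ranked 1387 among the genes tested. Shmt2 followed at 0.37, and Chac1 (1.19) and Psat1 (1.09) were the farthest. As a scale, the standard deviation over the 8 libraries was 0.35 for Atf4, 1.32 for Chac1 and 0.89 for Psat1. The measure grows with a gene's own spread, so a gene as variable as Chac1 is far from Atf4 whatever its direction. The distance of Chac1 was below its own standard deviation, and that of Psat1 was above it. The nearest genes were, like Atf4, highest in RA replicate 4, which stood apart.

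The wider pathway was read from 6 further lists. Over these, 124 of 131 genes passed the filter, 0 passed the adjusted threshold in either direction, and 71 were higher and 53 lower, with a median log2 fold change of 0.09. The unadjusted p was under 0.05 for 2 genes, both lower, and groups did not overlap for 3 genes. Both counts are below the 3.83% and 2.72% of all genes. Of all 12755 genes tested, 6654 were higher and 6101 lower, with a median of 0.02.

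Among the 18 kinases, phosphatases and subunits that set eIF2 phosphorylation, 10 were higher and 8 lower. The kinase PERK, Eif2ak3, which senses misfolded protein in the endoplasmic reticulum, was at 3.03 ± 1.28 CPM with serum alone and 4.58 ± 0.835 CPM with the drug (log2 0.58, SE 0.35, and 0.36 without RA replicate 4). GCN2, Eif2ak4, which senses uncharged tRNA, was at 3.26 ± 0.865 and 3.73 ± 0.859 CPM (0.19, SE 0.28, and from 0.086 without RA+Dipy replicate 4 to 0.36 without RA replicate 2). Ppp1r15a, the ATF4-induced phosphatase subunit GADD34 that resets eIF2, was at 40.5 ± 15.5 and 27.3 ± 4.50 CPM (-0.57, SE 0.29). RA replicate 4 alone, at 63.5 CPM, lay far above the others, and without it the Ppp1r15a value was -0.25. No gene of this list had an unadjusted p under 0.05.

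Of 33 other ATF4 targets, 29 were tested, 13 of them higher and 16 lower, with a median of -0.03. The related factor Atf5, itself a target, was at 109 ± 20.0 CPM without and 80.4 ± 15.3 CPM with dipyridamole (log2 -0.44, SE 0.25), a size near that of Atf4. Cdkn1a, the cell cycle inhibitor p21 that also answers to p53, had the smallest p of the list. It was at 41.6, 25.9, 21.9 and 55.9 CPM in RA and 19.9, 19.8, 19.8 and 18.3 CPM in RA+Dipy, so the groups did not overlap (log2 -0.90, SE 0.31, unadjusted p = 0.0151, edgeR adjusted p = 0.882). The Cdkn1a value was -0.60 without RA replicate 4, -0.62 without both libraries that stood apart and -1.08 without RA replicate 3. The stress factor Atf3 (-0.01, SE 0.30) and the mTOR inhibitor gene Ddit4 (0.09, SE 0.49) gave values near 0. Aldh18a1, which starts proline synthesis, had a log2 fold change of 0.47 (SE 0.41), which was 0.23 without RA replicate 4 and 0.77 without RA replicate 2.

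The cystine transporter gene Slc7a11 was at 4.56 CPM in RA replicate 4 and 4.69 CPM in RA+Dipy replicate 1, against 0.356 to 0.775 CPM in the other 6 libraries. The 2 high libraries, 1 in each group, were those that stood apart, and the fold change was 0.07 on the log2 scale (SE 0.98). The secreted stress hormones of muscle were barely detected and were not tested. Gdf15 was at 0.0356 to 0.592 CPM, and Fgf21 at 0 in 5 of the 8 libraries and at most at 0.169 CPM. A count of 0 allows up to 0.107 to 0.198 CPM in those 5 libraries (3 reads on the same scale), for counting error only.

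The 20 cytosolic aminoacyl-tRNA synthetases, which load amino acids on tRNA and include classic ATF4 targets, were higher in 7 cases and lower in 13, with a median of -0.05. Farsa, a subunit of the phenylalanine enzyme, was at 40.7 ± 19.6 CPM without the drug and 22.7 ± 5.20 CPM with it (log2 -0.84, SE 0.34, unadjusted p = 0.0333, edgeR adjusted p = 0.882), and at -0.45 without RA replicate 4. Vars, the valine enzyme, was at 51 ± 3.49 and 37.3 ± 7.60 CPM (-0.45, SE 0.23), with groups that did not overlap, and at -0.28 without both libraries that stood apart.

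Of 21 tested one-carbon, folate and glycine genes, 15 were higher and 6 lower, with a median of 0.14 and 0 genes at an unadjusted p under 0.05. Shmt1, the cytosolic counterpart of Shmt2, was at 12.4 ± 2.92 CPM without the drug and 10.2 ± 2.17 CPM with it (log2 -0.28, SE 0.26, and -0.11 without RA replicate 4). The smallest p values were those of the glycine cleavage genes Amt (-1.18, SE 0.63) and Dld (0.83, SE 0.50). For Amt, RA replicate 4 held 17.2 CPM against 2.22 to 4.29 CPM elsewhere, and without it the value was -0.05. For Dld, the extremes were RA replicate 4 (45.8 CPM) and RA+Dipy replicate 1 (519 CPM), and the value was 0.45 without the latter and 0.15 without both.

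Genes of the other arms of the endoplasmic reticulum stress response, IRE1 and ATF6, were higher in 18 of 25 cases with a median of 0.17, and 0 had an unadjusted p under 0.05. The chaperone BiP, Hspa5, stood at 179 ± 33.5 and 206 ± 61.6 CPM (log2 0.20, SE 0.28). The protein folding enzyme Pdia3 (0.34, SE 0.27) and the sensor IRE1 itself, Ern1 (0.47, SE 0.39), had the smallest p. Pdia3 was at 0.067 without RA+Dipy replicate 1, and Ern1 at 0.25 without RA replicate 4 and 0.85 without RA replicate 2. Of 11 mitochondrial stress genes 8 were higher, with a median of 0.13. The protease gene Yme1l1 differed by 0.50 (SE 0.40) and the chaperonin gene Hspd1 by 0.26 (SE 0.25) on the log2 scale, the latter with groups that did not overlap. Without RA replicate 4 these were 0.24 and 0.12, and without both libraries that stood apart 0.13 and 0.090. Yme1l1 was at 0.82 without RA replicate 2.

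**Figure D4:**
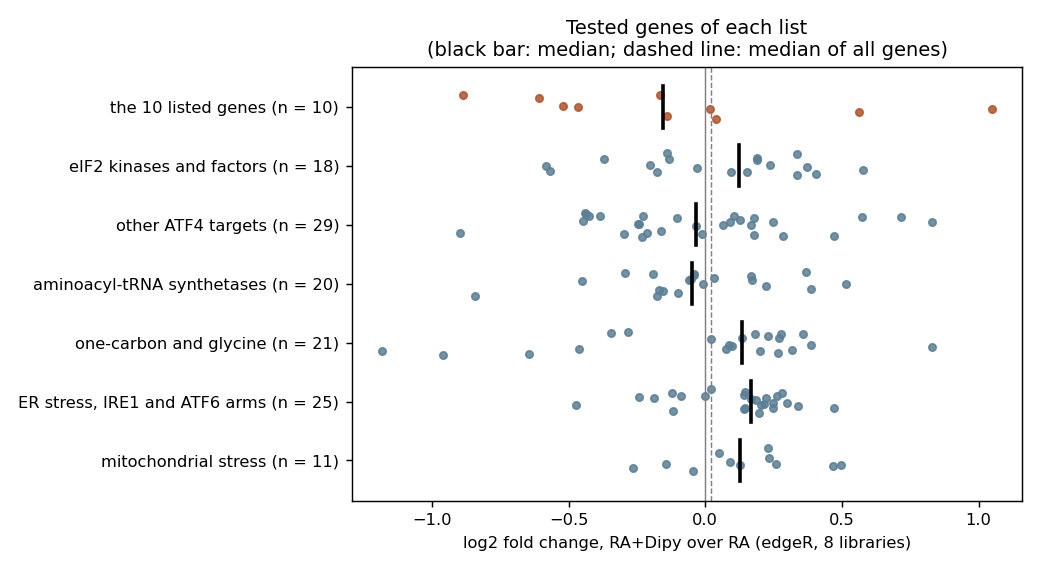
Log2 fold change of RA+Dipy over RA (horizontal axis) of each tested gene of the 10 listed genes and of 6 pathway lists (rows); points are genes, black bars medians, and the dashed line the median of all 12755 genes (0.02). The list medians lie between -0.15 and 0.17, and genes of each list fall on both sides of 0.

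The 3 listed genes with the promoter core, none past the threshold, had log2 fold changes of -0.89 (Chac1), -0.14 (Trib3) and 0.56 (Asns). In the other lists the core was in a window of 9 of 26 other ATF4 targets and 5 of 13 aminoacyl-tRNA synthetases that had a window. It was in 1 of 15 eIF2 genes, 1 of 22 IRE1 and ATF6 arm genes, 0 of 20 one-carbon genes and 0 of 9 mitochondrial stress genes, beside 3.97% of all windows.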

How the data were processed

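The authors deposited raw read counts per protein-coding gene, 1 table per library. Per the labels and the design text, fastp 0.20.0 trimmed the single-end 100 nt reads, STAR 2.7.3a placed them on GRCm38.p6 and HTSeq counted them without strand. No source used here gives the annotation release. The labels name TruSeq libraries and the design text a directional NEBNext kit. Counts of 24 symbols on more than 1 line were summed. Genes were kept by filterByExpr (minimum count 10), with 12755 kept and 9078 removed, and scaled by TMM. They were tested by edgeR 4.0.16 quasi-likelihood (R 4.3.3, robust, group as sole term, all 8 libraries), two-sided, with Benjamini-Hochberg over all genes. The fit was also run on simulated data, in which all libraries had the same spread, so that run does not cover libraries that stand apart. SE is the fold change over the root of F. The p-values treat the libraries as separate mice. No 2 libraries of a group agreed within sampling noise (smallest chi-square per degree of freedom 27.7).

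The 15 alternatives comprised DESeq2 size factors, DESeq2 1.42.0, limma-voom with library weights (limma 3.58.1), other filters, a replicate block and fits without libraries. Genes named are the 10 listed, 12 fixed by name, the 2 with the smallest p of each of 6 lists, and the 5 nearest to Atf4. Members and lists were chosen with earlier results of these data known. Positions and exon lengths come from GENCODE vM21 (GRCm38), in which 3 of the 10 genes, Ddit3, Psph and Shmt2, share exon bases with another gene on the opposite strand.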

Additional observations from a re-analysis of the deposited data

Results flagged for a closer look

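In 14 of 62 groups of 4 libraries (31 named genes, 2 groups each) 1 library lay far from the other 3, with a gap to its nearest neighbour, as a share of the group's whole range in CPM, above Dixon's 95% critical value. Chance gives about 1 in 20. RA replicate 4 or RA+Dipy replicate 1, the libraries that stood apart over all genes, was the outlying one in 10 of the 14. The only one of the 10 listed genes among them was Chac1, at 68.2 CPM in RA+Dipy replicate 2 against 23.2 to 26.3 CPM in the other 3. RA replicate 4 was high for Ppp1r15a (63.5 CPM), Slc7a11 (4.56), Amt (17.2) and Fgf21 (0.169, from 2 reads) and low for Hspd1 (102 CPM). RA+Dipy replicate 1 was high for Slc7a11 (4.69 CPM), Hspa5 (297), Amt (4.29) and Pdia3 (134) and low for Ern1 (4.95). RA+Dipy replicate 4 was low for Cdkn1a (18.3 CPM, against 19.8 to 19.9) and the sole RA+Dipy library with Fgf21 counts (0.120 CPM). RA replicate 3 was high for Pdia3 (82.1 CPM).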

How the results depend on the processing

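Under 14 of 15 alternatives 0 genes passed the adjusted threshold. Limma-voom with library weights called 133 genes (1.04%), 0 of the 10 listed genes and 1 of the pathway lists, the mitochondrial folate enzyme gene Aldh1l2 (log2 2.18, limma adjusted p = 0.0339, against 0.83 and 0.882 in edgeR). That fit weighted RA replicate 4 by 0.110 and RA+Dipy replicate 1 by 0.174. Its unadjusted p was under 0.05 for Atf4, Psat1 and Psph, and for 3638 of all 12755 genes tested, so such values were common in that fit. The smallest adjusted p of the 10 was 0.0656 (Psat1).

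Of the 10 listed genes, Atf4, Chac1, Asns, Psat1 and Shmt2 kept their direction under all 15 alternatives, and 16 of 150 values for the 10 genes changed sign. With library weights the changed signs were Trib3 0.15, Phgdh 0.25, Psph -0.39, Atf3 0.27, Ddit4 -0.031, Slc7a11 -0.32 and Hspa5 -0.14. Without both libraries that stood apart they were Trib3 0.10, Phgdh 0.46, Psph -0.28, Atf3 0.10, Slc7a11 -0.086 and Hspa5 -0.11, and without a low-count filter Psph -0.0084. Leaving out each library in turn gave ranges that cross 0 for Ddit3 (-0.26 to 0.086), Trib3 (-0.29 to 0.0020), Phgdh (-0.98 to 0.22), Psph (-0.23 to 0.16), Mthfd2 (-0.18 to 0.29), Atf3 (-0.26 to 0.17), Ddit4 (-0.16 to 0.38), Slc7a11 (-1.38 to 1.38) and Hspa5 (-0.029 to 0.32). Apart from the library left out or down-weighted, the cause was not tested.

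With a replicate block 0 genes passed (165 with an unadjusted p under 0.05, against 488), and Psat1 stood at 0.99 (edgeR adjusted p = 0.971). The main fit had no block because nothing in the labels says that a replicate number pairs mice. Deviations of libraries with the same number correlated at -0.19, 0.11, 0.14 and -0.26, and 1 of 4 RA libraries, replicate 3, correlated best with its own number. RA replicate 4 correlated best with RA+Dipy replicate 1, the other library that stood apart, so these correlations could hardly show a pairing. Depth limits Trib3, Asns, Psat1 and Phgdh most, with as few as 20 to 27 reads in a library.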

Other observations

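The wide spread of Chac1 was shared by other genes. With the same measure of likeness as for Atf4, a comparison chosen after the values of Chac1 were seen, the nearest gene was Cish, a feedback inhibitor of cytokine signalling, at 0.44 log2 units against a standard deviation of 1.32 for Chac1. Cish was at 6.42, 61.6, 73.6 and 25.1 CPM in RA replicates 1 to 4 and at 26.1, 25.3, 14.9 and 12.7 CPM in RA+Dipy. The heme exporter gene Flvcr1 (0.71) and the transcriptional regulators Cited2 (0.78) and Klf11 (0.85) were also among the nearest. As for Chac1, these 4 genes were lowest in RA replicate 1 and highest in RA replicates 2 and 3. These values describe 8 libraries, and no test was made.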
